A study of Mus musculus with 6 samples.

Results

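The genes described here encode the machinery that copies nuclear DNA, from the proteins that mark and license origins to the enzymes that supply nucleotides. They were taken from the deposited table by name from a fixed list of 46, and all 46 names were found among its 22487 genes. For the pair of names that stood on more than 1 row, Pole3 and Cdc45, the row with the higher summed count was used. The samples were ovaries of wild-type female rats, called adult in the series' design text, read by RNA sequencing in 6 libraries. The 3 controls had no treatment, and the 3 others had been exposed to cowshed PM2.5, the fine particles of barn air. The sample titles give 30 days for both groups without saying what the days count, and no source used here states the strain or an age. The organism field names the mouse, whereas rat is the species in the titles and in the prefix of all 22487 gene identifiers. It is not stated whether libraries of the same group are of different animals. The spread behind each p-value is therefore that of these libraries, and it may be technical.

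A chromosome is copied once per cell cycle. In G1 the origin recognition complex, with CDC6 and CDT1, loads the MCM helicase onto DNA, and geminin keeps CDT1 from loading it again later in the cycle. At the start of S phase CDC45 and the GINS complex join the MCM ring and open it into the active helicase, MCM10 assists, and polymerase alpha with primase lays down the primers that polymerases delta and epsilon extend, held to DNA by the PCNA clamp. Many of these genes are targets of E2F transcription factors and are transcribed mainly in cycling cells. In the adult ovary the main cycling population is the granulosa cells of growing follicles, whereas mature luteal cells seldom divide.

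Total counts were between 47662338 and 60749578 per library, and the lowest count of any member in a library was 116. All 46 members passed the filter of a mean of at least 0.5 FPKM, which 15303 genes passed. FPKM, the authors' level corrected for gene length and depth, is used below to compare genes. CPM, the count relative to library size after TMM scaling, is used to compare libraries. Values per library are listed in the order of libraries 1 to 3 of each group. Markers of granulosa cells, luteal cells and oocytes were present, which fits the ovary label, and their values are given below. Coordinates are copied from the authors' table, and their build is not given in the sources.

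The replication genes had mostly higher mean values in the PM2.5 libraries, but no member passed the test of the exposure. Of the 46 members 41 had a log2 fold change above 0 and 5 below, with a median of 0.39, against 50.4% of all genes tested above 0 and a median of 0.00. The quasi-likelihood test of edgeR, adjusted over all genes by Benjamini-Hochberg, called 0 of 46 members at an adjusted p below 0.05 (smallest 0.125). It called 0.928% of all genes tested, 0.19% higher and 0.738% lower. Without adjustment 5 of 46 members (10.9%) had p below 0.05, 4 higher and 1 lower, where 20.9% of all genes did. DESeq2 called 4 members, Tyms, Rfc4 and Pole higher and Orc5 lower, and limma on log2 FPKM called 0. Of all genes tested DESeq2 called 11.6%, and 4.79% of all genes as higher. In ovarian tissue fewer cells of a type and less RNA per cell cannot be told apart.

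**Figure D1:**
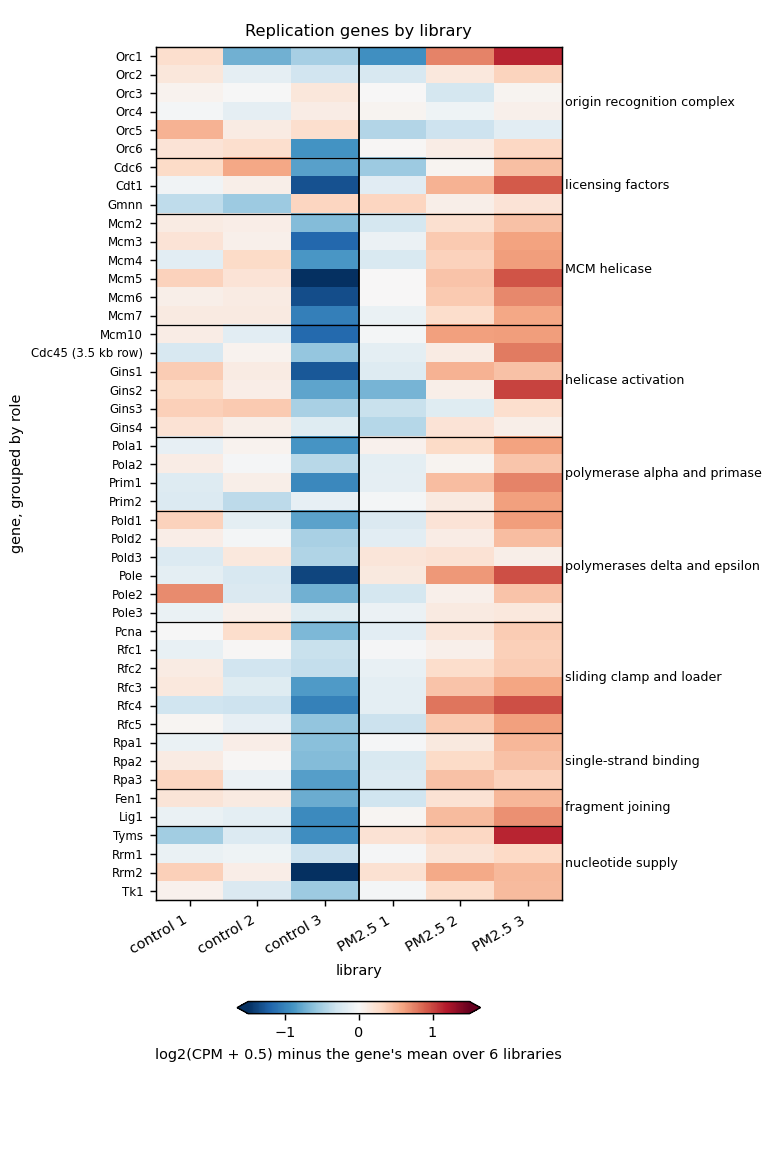
Level of each replication gene (rows, grouped by role) in each library (columns), as log2(CPM + 0.5) minus the gene's own mean over the 6 libraries, red above the mean and blue below, with colours saturating at 1.5. The column of control 3 is blue in most rows and that of PM2.5 library 3 red, while controls 1 and 2 and PM2.5 libraries 1 and 2 mostly lie between them.

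The pattern the members shared was one between libraries. Control 3 had the lowest CPM of the 6 libraries in 39 of 46 members and PM2.5 library 3 the highest in 34, and both held in 32 members, against 11.6% of all genes tested. The median over members of the log2 deviation from each gene's own mean was 0.10, 0.03 and -0.70 (controls) and -0.14, 0.23 and 0.48 (exposed). PM2.5 library 1 therefore lay below controls 1 and 2, and the groups overlapped. The median log2 fold change of the 46 members was 0.20 with control 3 left out and 0.26 with PM2.5 library 3 left out. With both left out it was 0.06, and 27 of 46 members were above the controls. Without PM2.5 library 1 the median was 0.55, and 32 of 46 members then had groups that did not overlap, where 43.3% of all genes tested did.

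As sets, markers of granulosa cells, oocytes and luteal cells differed between the same libraries, while single markers did not all do so. Of 11 granulosa cell markers 9 were above the controls, and none was at 0 in any library. Of these 11, 6 were lowest in control 3 and 6 highest in PM2.5 library 3. Their summed level was 6355, 5539 and 1612 CPM (controls) and 2858, 7521 and 8974 CPM (exposed). Inha, which encodes the inhibin alpha subunit, made up most of that summed level in every library. It had control values of 4455, 3253 and 886 CPM and exposed values of 1724, 5362 and 6152 CPM. Of 11 oocyte markers 9 were above the controls, and their summed level was 174, 223 and 55.0 CPM (controls) and 102, 164 and 339 CPM (exposed). One of them, Figla, named here after its values were seen, was at 0 in control 3. Of 6 luteal markers, none at 0 in any library, 3 were above the controls. Control 3 was highest in 2 of the 6 and lowest in 1, and PM2.5 library 1 was highest in 3. The summed level of the luteal markers was 11310.0, 12020.0 and 22530.0 CPM (controls) and 24870.0, 12150.0 and 8353 CPM (exposed). By median deviation control 3 and PM2.5 library 1 were lowest on the granulosa, oocyte and replication genes and highest on the luteal genes. The 4 theca cell markers, of which Hsd3b1 is also a luteal marker, were all below the controls. Their median deviations were 0.17, 0.54 and 0.43 (controls) and -0.26, -0.36 and -0.37 (exposed), by this measure a different pattern. Their summed level was 4908, 4302 and 8166 CPM (controls) and 8384, 3991 and 3592 CPM (exposed). Hsd3b1 made up most of that sum, which was highest in control 3 and PM2.5 library 1, as was that of the luteal markers. Of 17 mitosis markers 16 were above the controls with a median log2 fold change of 0.60 and none passed (smallest adjusted p 0.28). Their summed level was 723, 899.9 and 259 CPM (controls) and 671, 1054 and 1024 CPM (exposed). Aurkb, named here after its values were seen, made up a large part of that sum in some libraries. Its control values were 65.4, 293.5 and 19.5 CPM and its exposed values 200.7, 274.5 and 60.1 CPM. By gene, 16 of the 17 markers were lowest in control 3 and 15 highest in PM2.5 library 3, against 25.7% and 20.8% of all genes tested. No mitosis marker was at 0 in any library. Of 6 erythroid markers 4 passed the filter. Among these, 3 stood apart by group and passed the test, where 0.928% of all genes tested passed, and the other overlapped between groups. The 4 had summed levels of 711, 657 and 663 CPM (controls) and 2564, 3859 and 4032 CPM (exposed), mostly from Hba-a1 and Hbb. The part of any of these markers' cells in the values of the replication genes was not tested.

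**Figure D2:**
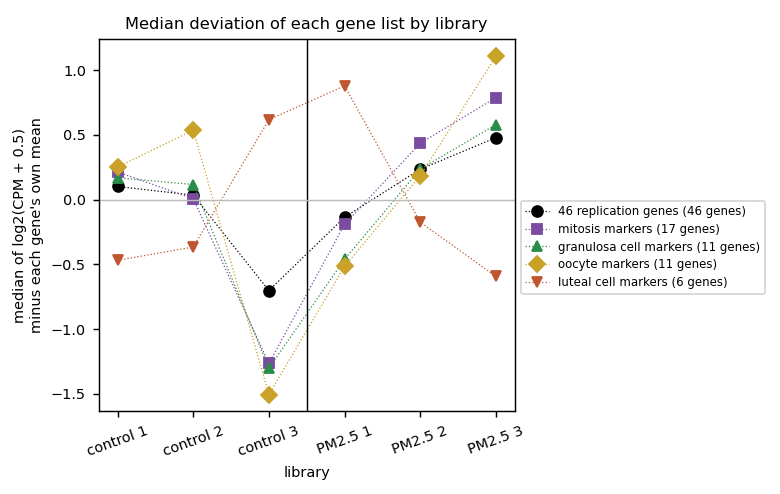
Median deviation (log2(CPM + 0.5) minus each gene's own mean over the 6 libraries) of the 46 replication genes and of marker lists for mitosis, granulosa cells, oocytes and luteal cells in each library, where dotted lines only guide the eye. Replication, mitosis, granulosa and oocyte genes were lowest in control 3 and highest in PM2.5 library 3, and the luteal markers were high in control 3 and PM2.5 library 1.

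The annotation of the row that stood for Cdc45 went against its name. It covers 3518 bases on the minus strand of chromosome 11, from 82211475 to 82214992, and the table's own Gene Ontology terms for it name the tight junction and the endothelial barrier and no replication term. The other Cdc45 row covers 25147 bases on the plus strand, from 82185473 to 82210619, ends 855 bases before the first, and carries the terms for the CMG complex, the active helicase. In the mouse assembly GRCm38.p6 the neighbours of Cdc45 are Ufd1 and Cldn5, which encodes the tight junction protein claudin-5, and no row of the deposited table is named Cldn5. The 3518-base row had control values of 55.5, 68.0 and 43.7 CPM and exposed values of 59.1, 71.3 and 112 CPM. It was lowest in control 3 and highest in PM2.5 library 3, as were 32 of the 46 members and 11.6% of all genes tested. The 6 endothelial markers had summed levels of 394, 370.4 and 584 CPM (controls) and 529, 342 and 342 CPM (exposed), highest in control 3, and 2 of 6 were above the controls. These levels do not decide what the row encodes, which was not tested. The replication-annotated row had control values of 21.0, 11.8 and 8.06 CPM and exposed values of 9.80, 17.4 and 16.7 CPM, with a log2 fold change of 0.10 ± 0.41 against 0.54 ± 0.28 for the first. With that row in its place 41 of 46 members were still above the controls and the median was 0.37. Counts over the 46 members keep the higher-count row that the selection fixed. The Pole3 row used, of 2515 bases on chromosome 5, is the one that the table places in the DNA replication pathway.

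**Figure D3:**
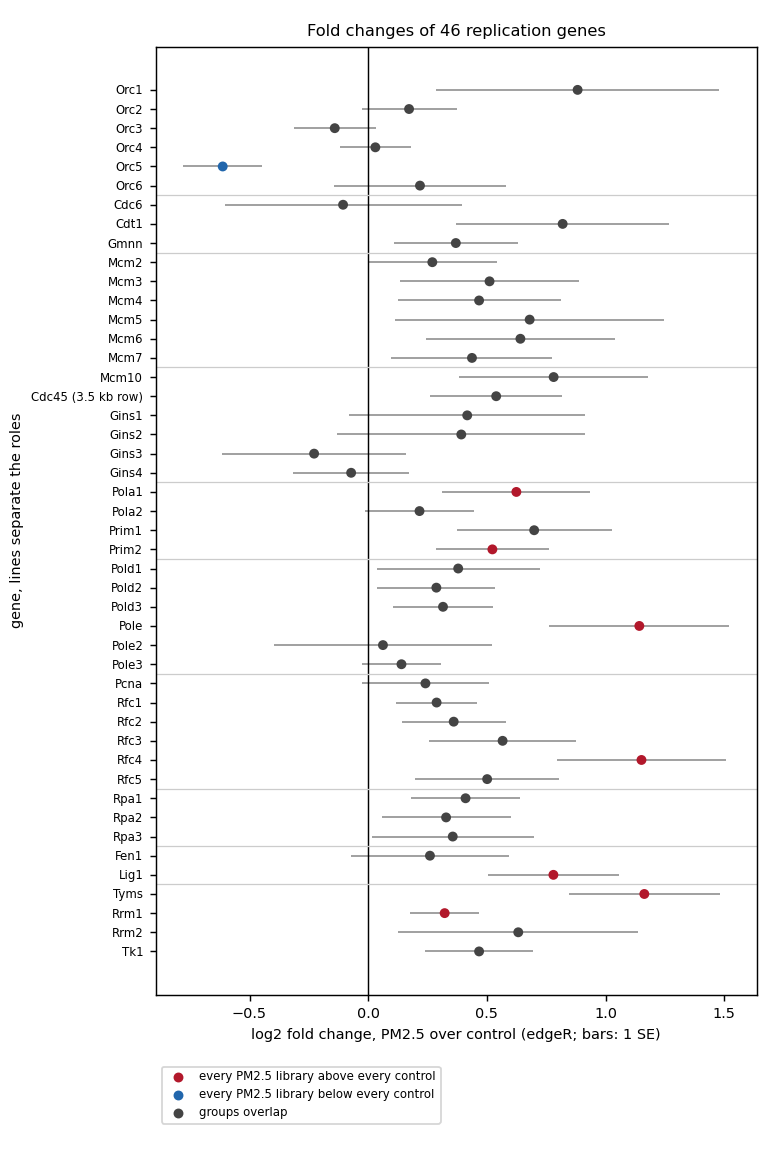
Log2 fold change of each of the 46 members, PM2.5 over control, from edgeR (points) with 1 SE (bars), in the order of their roles. Points lie right of 0 for 41 members, and red marks the 7 members in which every PM2.5 library was above every control and blue the 1, Orc5, in which every one was below.

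The subunits of the origin recognition complex did not share one pattern across libraries. Orc5, the subunit that lies in the ATPase core of the complex, had control values of 54.0, 40.9 and 44.9 CPM and exposed values of 27.6, 30.3 and 33.6 CPM. Every PM2.5 library was below every control, with a log2 fold change of -0.61 ± 0.17 (SE) and an adjusted p of 0.125 in edgeR. The gene lies on chromosome 4 from 12548007 to 12612568. DESeq2 called it (adjusted p = 0.0331), and with a library left out its edgeR adjusted p was 0.115 to 0.37. Orc1, the subunit whose abundance varies most over the cell cycle, had control values of 6.92, 3.29 and 3.92 CPM and exposed values of 2.80, 9.98 and 13.2 CPM, and was high in PM2.5 libraries 2 and 3 and lowest in PM2.5 library 1 (log2 fold change 0.88 ± 0.60, adjusted p = 0.429). Orc2 had control values of 61.1, 49.4 and 44.4 CPM and exposed values of 45.8, 60.3 and 68.5 CPM. Orc6, the smallest subunit, had control values of 11.4, 11.8 and 5.03 CPM and exposed values of 9.96, 10.6 and 12.2 CPM. Orc3 and Orc4 were the steadiest members of the complex. Orc3 had control values of 22.8, 21.9 and 24.7 CPM and exposed values of 22.1, 18.2 and 22.6 CPM. Orc4 had control values of 28.9, 26.8 and 32.0 CPM and exposed values of 30.3, 28.1 and 31.2 CPM, a ratio of 1.19 between the highest and the lowest library. Per length, Orc1 was the lowest of the 6 subunits in each of the 6 libraries, with 1.38 ± 0.568 FPKM (controls) and 2.56 ± 1.58 FPKM (exposed) (mean ± SD, n = 3), and Orc2 or Orc5 the highest. Orc2 had 16.9 ± 3.02 FPKM (controls) and 19.0 ± 3.78 FPKM (exposed).

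Among the licensing factors the loader and its inhibitor took different courses across libraries. Cdt1, which brings the MCM ring to the origin, had control values of 15.0, 16.7 and 5.98 CPM and exposed values of 13.8, 22.6 and 30.0 CPM, lowest in control 3 and highest in PM2.5 library 3. Gmnn, which encodes geminin, the inhibitor of CDT1, had control values of 17.7, 15.7 and 29.0 CPM and exposed values of 29.2, 24.6 and 26.8 CPM and lay in control 3 within the range of the PM2.5 libraries. The ratio of Cdt1 to Gmnn in FPKM was 0.446, 0.557 and 0.108 (controls) and 0.248, 0.483 and 0.59 (exposed), so control 3 stood lowest and the groups overlapped. Cdc6, the ATPase that loads the ring with the origin recognition complex, had control values of 5.56, 6.96 and 2.34 CPM and exposed values of 2.92, 4.61 and 6.29 CPM and was the lowest of all 46 members per length, at a mean of 1.61 FPKM. Their log2 fold changes were 0.82 ± 0.45 for Cdt1, 0.37 ± 0.26 for Gmnn and -0.11 ± 0.50 for Cdc6, and the smallest adjusted p of the group was 0.34.

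The 6 subunits of the MCM ring shared one pattern across libraries. Each was lowest in control 3 and highest in PM2.5 library 3, and all 6 had positive log2 fold changes, from 0.27 to 0.68, with adjusted p between 0.393 and 0.602. Mcm5 had control values of 43.2, 39.3 and 8.60 CPM and exposed values of 34.0, 46.1 and 65.9 CPM, a ratio of 7.66 between the highest and lowest library and the largest such ratio among the members. Mcm6 had control values of 43.9, 44.9 and 16.1 CPM and exposed values of 41.4, 54.4 and 68.0 CPM. Mcm2 varied least in the ring, with control values of 63.7, 62.5 and 36.8 CPM and exposed values of 48.4, 69.1 and 79.1 CPM. In all 6 subunits the values of controls 1 and 2 fell within the range of the exposed libraries. Mcm7 overlaps Mir93 and Mir25 on the same strand and Cops6 and Ap4m1 on the other strand. It had control values of 71.2, 71.3 and 31.4 CPM and exposed values of 60.5, 77.8 and 97.2 CPM. Mcm3 had control values of 44.8, 40.7 and 16.8 CPM and exposed values of 36.3, 50.7 and 58.8 CPM. Mcm4 had control values of 34.6, 47.4 and 20.8 CPM and exposed values of 32.8, 49.2 and 60.1 CPM. Without control 3 and PM2.5 library 3 the log2 fold changes of the 6 subunits lay between -0.10 and 0.11. Per length the subunits lay close to each other, with a median ratio of 2.32 between the highest and the lowest subunit in a library and 4.23 in the library where they were furthest apart. Mcm7 had 17.7 ± 7.44 FPKM (controls) and 23.9 ± 5.60 FPKM (exposed), and Mcm4 had 7.85 ± 3.31 FPKM (controls) and 10.8 ± 3.13 FPKM (exposed).

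The genes whose proteins turn the ring into a helicase did not share a direction. Mcm10 had control values of 11.7, 9.66 and 4.56 CPM and exposed values of 10.6, 16.9 and 17.0 CPM (log2 fold change 0.78 ± 0.40, adjusted p = 0.308). Gins1 had control values of 9.08, 7.49 and 2.54 CPM and exposed values of 5.93, 10.1 and 9.51 CPM. Gins2 had control values of 9.85, 8.62 and 4.40 CPM and exposed values of 4.77, 8.55 and 16.7 CPM. Both were lowest in control 3, as were 5 of the 6 genes of this group, all but Gins4. Gins3 had control values of 6.34, 6.49 and 3.29 CPM and exposed values of 3.74, 4.18 and 5.84 CPM, with controls 1 and 2 above every PM2.5 library. Gins4 had control values of 18.9, 17.2 and 14.3 CPM and exposed values of 11.9, 18.7 and 17.3 CPM, with the lowest value in PM2.5 library 1. Gins3 at -0.23 ± 0.39 and Gins4 at -0.07 ± 0.24 were among the 5 members with a negative log2 fold change, each smaller than its SE. Gins2 overlaps Emc8 and Gins4 overlaps Golga7 on the same strand, so these counts are uncertain. The same holds for Pola2, which overlaps Cdc42ep2, and for Pole, which overlaps the small nucleolar RNA gene LOC120096104. It is not given whether counting used strand, so the 9 members that overlap a gene on the other strand may be affected too. Lig1 (Zswim9) and Prim1 (Hsd17b6) are among them. The GINS complex holds 1 copy of each of its subunits, and per length its 4 genes differed by a median ratio of 4.53 within a library, with Gins4 or Gins1 highest and Gins2 or Gins3 lowest.

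Polymerase alpha and primase, which start each new strand with a short RNA and DNA primer, had positive log2 fold changes in all 4 subunits, with adjusted p between 0.267 and 0.624. Pola1, the catalytic subunit, had control values of 12.6, 14.2 and 7.17 CPM and exposed values of 14.4, 16.8 and 21.1 CPM, and every PM2.5 library was above every control, by a narrow margin between control 2 and PM2.5 library 1. Prim2, the large primase subunit, had control values of 13.5, 11.8 and 14.3 CPM and exposed values of 15.4, 17.3 and 24.4 CPM, also with no overlap. Prim1, the catalytic primase subunit, had control values of 42.9, 52.0 and 24.8 CPM and exposed values of 44.6, 67.6 and 82.0 CPM, with control 2 above PM2.5 library 1. Pola2, the accessory subunit, had control values of 24.2, 22.2 and 16.7 CPM and exposed values of 20.2, 23.1 and 29.9 CPM. The log2 fold changes were 0.70 ± 0.33 for Prim1, 0.62 ± 0.31 for Pola1, 0.52 ± 0.24 for Prim2 and 0.22 ± 0.23 for Pola2. Per length Prim1 was the highest and Pola1 the lowest of the 4 in every library.

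Among the replicative polymerases the catalytic subunit of epsilon had a larger fold change than its partners, a difference that was not tested. Pole, which copies the leading strand, had control values of 20.4, 19.0 and 8.36 CPM and exposed values of 25.1, 35.9 and 44.5 CPM, and the groups did not overlap. Its log2 fold change was 1.14 ± 0.38, with an adjusted p of 0.167 in edgeR and 0.0418 in DESeq2. With a library left out the edgeR adjusted p was 0.171 to 0.398. The gene lies on chromosome 12 from 46345420 to 46393939. Pole2, the second epsilon subunit, had control values of 10.3, 5.18 and 3.49 CPM and exposed values of 5.00, 6.46 and 8.36 CPM, highest in control 1. Pole3, a histone-fold subunit, had control values of 24.1, 27.3 and 22.8 CPM and exposed values of 24.3, 28.4 and 29.1 CPM. The log2 fold changes of these partners were 0.06 ± 0.46 and 0.14 ± 0.17. In polymerase delta, which copies the lagging strand, Pold1, the catalytic subunit, had control values of 39.4, 28.0 and 17.5 CPM and exposed values of 26.5, 35.6 and 48.3 CPM. Pold2 had control values of 21.5, 19.7 and 14.3 CPM and exposed values of 18.0, 21.8 and 28.0 CPM. Pold3 had control values of 18.1, 23.3 and 15.1 CPM and exposed values of 23.8, 24.4 and 22.1 CPM. All 3 delta genes overlapped between groups, with log2 fold changes from 0.29 to 0.38. Per length Pole and Pole2 were low, at 2.02 ± 0.876 FPKM (controls) and 4.44 ± 1.23 FPKM (exposed) for Pole, against 12.2 ± 1.63 FPKM (controls) and 13.4 ± 1.27 FPKM (exposed) for Pole3.

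**Figure D4:**
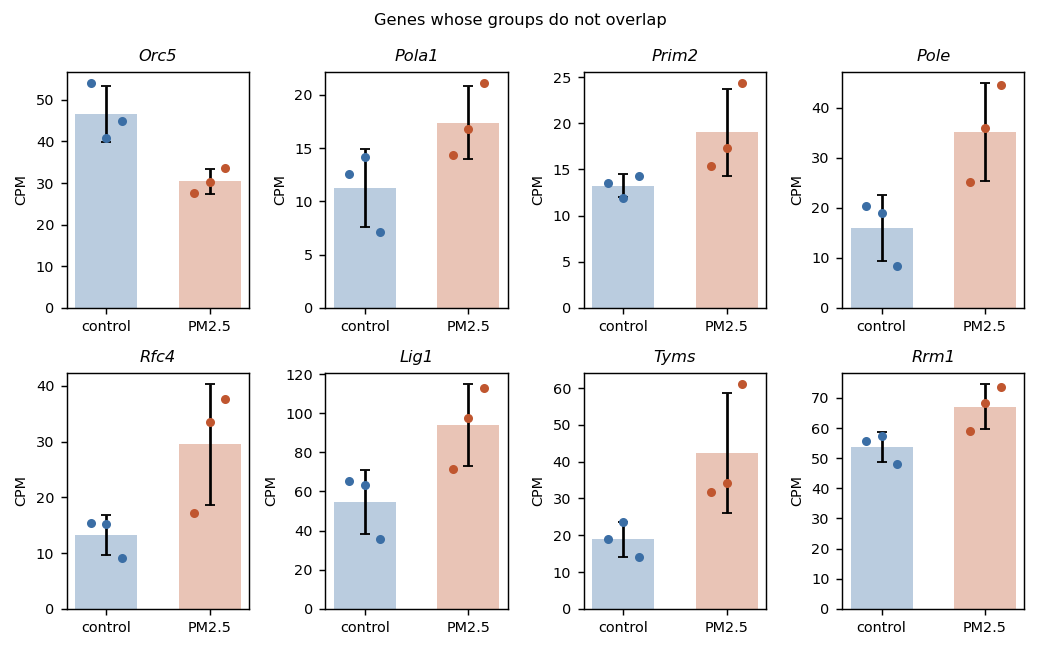
CPM of the 8 members whose groups did not overlap, with 1 point per library in the order 1 to 3, bars for the group mean and error bars of 1 SD (n = 3 in each group). Orc5 is lower in the PM2.5 libraries and the other 7 are higher, and control 3 is the lowest control in Pola1, Pole, Rfc4, Lig1, Tyms and Rrm1.

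The sliding clamp had the highest level per length of the machinery, and its loader subunits had fold changes of different size. Pcna, which encodes the clamp, had control values of 78.6, 94.9 and 49.0 CPM and exposed values of 70.6, 89.3 and 103 CPM (log2 fold change 0.24 ± 0.27), and per length it was the highest of all 46 members, with 45.4 ± 15.8 FPKM (controls) and 53.4 ± 9.90 FPKM (exposed). Rfc4, a small subunit of the loader that opens the clamp, had control values of 15.4, 15.3 and 9.17 CPM and exposed values of 17.2, 33.5 and 37.7 CPM. PM2.5 libraries 2 and 3 were far above the controls, while PM2.5 library 1 was just above controls 1 and 2. Its log2 fold change was 1.15 ± 0.35 with an adjusted p of 0.148 in edgeR and 0.029 in DESeq2. With a library left out the edgeR adjusted p was 0.11 to 0.396. The gene lies on chromosome 11 from 77749638 to 77764122. The other 4 loader subunits had log2 fold changes from 0.29 to 0.57. Rfc3 had control values of 32.1, 25.4 and 15.8 CPM and exposed values of 26.1, 38.8 and 43.6 CPM and was the highest loader subunit per length in every library. Rfc1, the large subunit, had control values of 37.0, 40.6 and 31.8 CPM and exposed values of 39.7, 42.3 and 51.6 CPM. Each of these 4 subunits overlapped between groups and was highest in PM2.5 library 3 and lowest in control 3. Rfc2 had control values of 25.7, 19.3 and 18.3 CPM and exposed values of 21.8, 28.6 and 30.8 CPM. Rfc5 had control values of 18.5, 16.6 and 11.9 CPM and exposed values of 14.4, 24.1 and 28.1 CPM.

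The subunits of replication protein A, which coats single-stranded DNA, had similar log2 fold changes, 0.41 ± 0.23 for Rpa1, 0.33 ± 0.27 for Rpa2 and 0.36 ± 0.34 for Rpa3, and none passed. Rpa1, the large subunit, had control values of 50.9, 58.4 and 35.3 CPM and exposed values of 54.1, 60.7 and 77.4 CPM. Rpa2 had control values of 34.0, 31.6 and 19.7 CPM and exposed values of 26.5, 38.2 and 42.4 CPM. Rpa3 had control values of 21.9, 16.4 and 9.65 CPM and exposed values of 15.1, 23.9 and 22.4 CPM. In all 3 control 3 was the lowest library. Per length the order was the same in every library, Rpa3 highest and Rpa1 lowest, with a median ratio of 1.64 between them.

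Of the enzymes that finish the lagging strand, the groups were apart for the ligase and overlapped for the nuclease. Lig1, the ligase that seals Okazaki fragments, had control values of 65.2, 63.2 and 35.9 CPM and exposed values of 71.6, 97.8 and 113 CPM, and every PM2.5 library was above every control (log2 fold change 0.78 ± 0.28, adjusted p = 0.183). It lies on chromosome 1 from 74165842 to 74204413. Fen1, the nuclease that trims the flap before ligation, had control values of 20.1, 19.4 and 10.3 CPM and exposed values of 14.2, 20.5 and 24.9 CPM, with controls 1 and 2 level with PM2.5 library 2 (log2 fold change 0.26 ± 0.33). The ratio of Fen1 to Lig1 in FPKM was 0.393, 0.39 and 0.364 (controls) and 0.253, 0.267 and 0.281 (exposed). This ratio was picked after its values were seen, so it is given as a description.

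Of the enzymes of nucleotide supply, Tyms had the largest fold change among the 46 members. Tyms, which encodes thymidylate synthase, had control values of 19.0, 23.6 and 14.1 CPM and exposed values of 31.9, 34.1 and 61.1 CPM, and every exposed library was above every control. The log2 fold change was 1.16 ± 0.32, with an adjusted p of 0.127 in edgeR and 0.0132 in DESeq2. With a library left out the edgeR adjusted p was 0.125 to 0.311. The gene lies on chromosome 9 from 113313452 to 113329536. Rrm1, the large subunit of ribonucleotide reductase, had control values of 55.8, 57.3 and 48.0 CPM and exposed values of 59.0, 68.5 and 73.8 CPM. Its groups did not overlap, by a narrow margin between control 2 and PM2.5 library 1, and its log2 fold change was small, 0.32 ± 0.15. Rrm2, the subunit whose level follows S phase, had control values of 23.6, 19.6 and 5.17 CPM and exposed values of 21.5, 27.5 and 25.9 CPM, and the low value was that of control 3. The ratio of Rrm1 to Rrm2 in FPKM was 7.23 in control 3 and between 1.84 and 2.27 in the other 5 libraries. Tk1, thymidine kinase, overlaps Afmid and Syngr2 on the other strand and had control values of 27.8, 22.7 and 18.0 CPM and exposed values of 25.9, 31.9 and 36.9 CPM (log2 fold change 0.47 ± 0.23, adjusted p = 0.288).

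**Figure D5:**
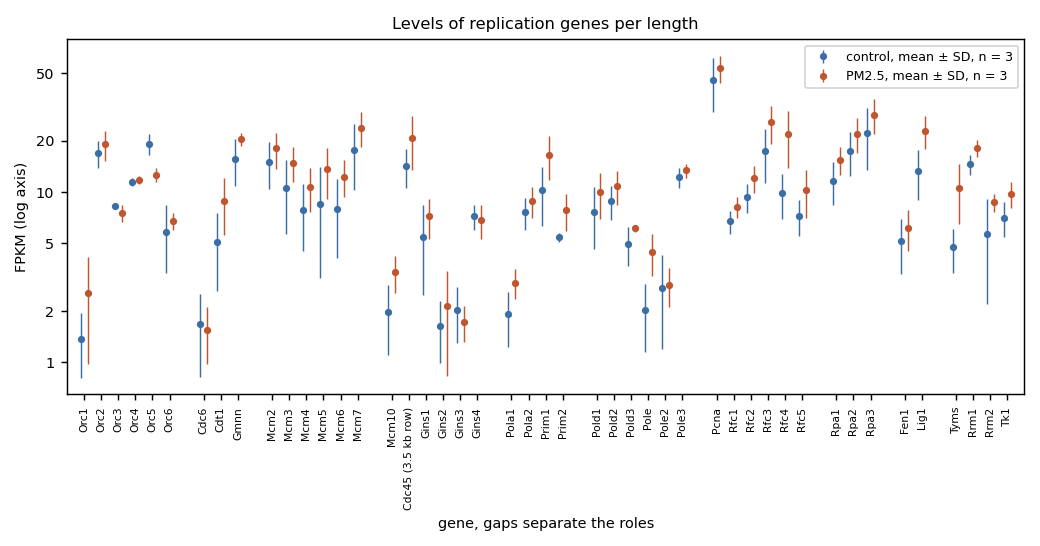
Level per length of each member, in FPKM on a log axis, as mean ± SD (n = 3) in controls (blue) and PM2.5 libraries (orange), grouped by role. Pcna is highest and Cdc6, Gins2, Gins3 and Orc1 are lowest, and the error bars of the groups overlap for most members.

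Groups did not overlap in 8 of 46 members (17.4%), 7 higher and 1 lower, where 27.2% of all genes tested did. These were Pola1, Prim2, Pole, Rfc4, Lig1, Tyms and Rrm1 above and Orc5 below. The size of the log2 fold change was below its SE in 15 of the 46 members, and 3, Tyms, Rfc4 and Pole, had a log2 fold change of at least 1. With a replicate block the adjusted p was 0.276 for Tyms, 0.304 for Orc5, 0.314 for Rfc4 and 0.32 for Pole.

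To see which members departed from the shared movement of the libraries, the median deviation of the 46 members was subtracted from each gene in each library, a step chosen after the data were seen. The median SD of a member over the 6 libraries was 0.45 on the log2 scale before and 0.24 after, and 37 of 46 members had a smaller SD after. The subtracted median came from these same members, so a smaller SD was partly fixed in advance and tests nothing. On that relative scale the groups were apart in 11 of 46 members (23.9%), 7 above and 4 below, a share near the 20.3% of all genes tested. Lig1 had relative values of -0.20, -0.18 and -0.25 (controls) and 0.17, 0.25 and 0.21 (exposed), closely grouped on each side. Pole had -0.24, -0.28 and -0.68 (controls) and 0.29, 0.42 and 0.48 (exposed). Tyms had -0.62, -0.24 and -0.23 (controls) and 0.35, 0.07 and 0.66 (exposed). Rfc4, Mcm6, Mcm10 and Pola1 were also above. Orc5, Gins3, Gins4 and Mcm2 were below, with Orc5 at 0.42, 0.09 and 0.96 (controls) and -0.30, -0.54 and -0.64 (exposed). The subtraction raises every gene in control 3, where the members' median was -0.70. Orc3 and Orc4, steady before it, stood at 0.87 and 0.82 there. For Mcm2 the difference between group means was -0.10, against a log2 fold change of 0.27 without the subtraction.

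Of 49 other genes of DNA replication, all tested, 34 were above and 15 below the controls, with a median log2 fold change of 0.18. In edgeR 0 passed after adjustment over all genes, and 10 (20.4%) had an unadjusted p below 0.05, 7 higher and 3 lower, a share near the 20.9% of all genes tested. Cdc25a, the phosphatase that activates the S phase kinase CDK2, came nearest, with control values of 49.8, 42.3 and 37.4 CPM and exposed values of 87.7, 95.8 and 75.8 CPM (log2 fold change 1.00 ± 0.16, adjusted p = 0.0512). Its groups did not overlap, and it passed when genes were required to have a mean of at least 1 FPKM. Rnaseh2a, the catalytic subunit of the enzyme that removes RNA from DNA, had control values of 7.11, 3.42 and 6.83 CPM and exposed values of 59.4, 68.5 and 11.1 CPM, far higher in PM2.5 libraries 1 and 2 than in library 3 (log2 fold change 3.00 ± 0.68, adjusted p = 0.0949). The list of oviduct epithelium markers held 4 genes, of which Ovgp1 and Foxj1 had no row of that name. Pax8 and Epcam, both above the controls, had summed levels of 14.2, 30.4 and 3.62 CPM (controls) and 146, 159.7 and 34.7 CPM (exposed), also higher in PM2.5 libraries 1 and 2. The markers of smooth muscle (4 of 4 above) had 846, 817 and 447 CPM (controls) and 1798, 3297 and 689 CPM (exposed). Their part in the Rnaseh2a values was not tested. Atad5, which unloads PCNA from DNA, had control values of 16.2, 12.8 and 7.43 CPM and exposed values of 18.4, 28.5 and 35.5 CPM. Chtf8, part of an alternative clamp loader, had control values of 71.0, 93.5 and 68.0 CPM and exposed values of 55.5, 46.3 and 43.3 CPM, below the controls in every PM2.5 library. DESeq2 called 7 of the 49, Cdc25a, Rnaseh2a, Atad5, Dbf4, Mtbp and Tipin higher and Chtf8 lower, where it called 11.6% of all genes tested.

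Of 16 genes of the E2F and RB families 9 were above and 7 below the controls, with a median log2 fold change of 0.10 and 0 passing in edgeR (1, or 6.25%, with an unadjusted p below 0.05). Tfdp2, a partner of E2F factors, had control values of 6.78, 9.90 and 3.92 CPM and exposed values of 12.9, 15.8 and 17.3 CPM (log2 fold change 1.16 ± 0.37, adjusted p = 0.156). E2f1, an activator of S phase genes, had control values of 11.0, 7.53 and 3.76 CPM and exposed values of 10.6, 9.72 and 11.0 CPM. Of 12 D-type cyclins, their kinases and CDK inhibitors 7 were below and 5 above the controls, with a median log2 fold change of -0.39. In edgeR 0 passed and 3 (25.0%) had an unadjusted p below 0.05, all lower, where 20.9% of all genes tested had one and 11.7% were lower with one. Cdkn2b, which encodes the CDK4 and CDK6 inhibitor p15, had control values of 69.2, 56.1 and 241 CPM and exposed values of 18.4, 25.2 and 43.8 CPM, with control 3 far above the other controls (log2 fold change -2.07 ± 0.62, adjusted p = 0.144). Ccnd3, a D-type cyclin, had control values of 51.5, 52.5 and 70.4 CPM and exposed values of 42.0, 31.9 and 31.7 CPM. Cdkn1a, the p53 target p21, had control values of 53.1, 81.3 and 77.0 CPM and exposed values of 36.4, 40.8 and 55.0 CPM. Others of the list went the other way. Cdkn1b, also a CDK inhibitor, had control values of 155, 92.4 and 168 CPM and exposed values of 348, 179 and 161 CPM (log2 fold change 0.73 ± 0.36). The log2 fold changes were 0.66 for Cdkn2c, 0.50 for Ccnd2, 0.29 for Cdk4 and 0.12 for Cdkn2d. The regulators of this paragraph were named after their values were seen.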

How the data were processed

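RNA was sequenced from ovarian tissue in 6 libraries, 3 control and 3 PM2.5. Per the labels' protocols, mRNA was purified with oligo(dT) beads, the second strand was U-labelled and removed and fragments were read from both ends. The submitters' processing notes name HISAT2 2.2.1, cutadapt 1.9, edgeR, DESeq2 and StringTie 2.1.6, with no role for any. Genome build, annotation and whether counting used strand: not given in the sources used here. The deposited count columns hold whole-number counts per gene, per the file headers, and the deposited FPKM columns are the authors' own normalisation.

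The counts were tested with edgeR 4.0.16 in R 4.3.3 (TMM, glmQLFit, glmQLFTest, PM2.5 over control, two-sided) on the 15303 genes whose mean FPKM reached 0.5, with Benjamini-Hochberg adjustment over all of them. The SE is the log2 fold change over the root of F. Members and lists were chosen with earlier results of these data known. Any member could be named. Other genes were named by a rule: the 4 smallest p among other replication genes and the 3 highest mean FPKM in a marker list, with exceptions stated. The fit was tested on simulated data. Alternatives were DESeq2 1.42.0, limma 3.58.1, other scalings and filters, a replicate block and each library left out. Libraries of a group differed by a chi-square of at least 112 per degree of freedom, so none repeats another. List descriptions use log2(CPM + 0.5). The reference in hand is of the mouse, so no sequence was used.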

Additional observations from a re-analysis of the deposited data

How the results depend on the processing

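No member passed in edgeR under other scalings, filters, a replicate block or with any library left out, nor in limma, and DESeq2 called 4. Of 736 member values under alternatives 707 kept sign and call, 4 gained a call and 25, in 17 members, changed sign without being called. The 41 members above the controls numbered 27 without both libraries numbered 3, an alternative chosen after the data were seen, as was the use of the other Cdc45 row. Members whose groups did not overlap numbered 8, and 8 to 32 with a library left out (32 without PM2.5 library 1, 15 without control 2, 13 without control 1) and 13 without both libraries numbered 3. These are 69.6%, 32.6%, 28.3% and 28.3% of members, where 43.3%, 42.9%, 35.7% and 47.1% of all genes tested were apart, so all but the first lie below the background. With library size alone, and in limma on log2 FPKM, 6 members (13.0%) were apart, where 27.0% and 26.7% of all genes tested were. Upper quartile scaling left 7 (15.2%) apart, where 27.3% of all genes tested were. Over all genes 142 were called, 1767 with DESeq2, 8 without a filter, 1 with the replicate block, 0 to 7 with a library left out and 56 without both libraries numbered 3. Of the other replication genes 0 were called, 7 with DESeq2, 1 with a mean of at least 1 FPKM (Cdc25a) and 1 without both libraries numbered 3 (Rnaseh2a). Leaving out libraries leaves fewer samples, and for the other settings the cause was not tested. Deviations of same-numbered libraries correlated at -0.296, 0.133 and -0.0525, so the numbers were not taken to pair the libraries, and with the replicate block 0 members were called and 4 had an unadjusted p below 0.05, where 14.5% of all genes tested did.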
